A study of Homo sapiens with 12 samples.

Results

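The genes described here are 10 of the genes that encode the subunits of RNA polymerase II. POLR2A and POLR2B encode the 2 large subunits, and POLR2C, POLR2D, POLR2E, POLR2F, POLR2G, POLR2H, POLR2I and POLR2K encode 8 small ones. Members were taken by gene name from the probe sets annotated to that gene alone, and all 10 were among the 16913 genes kept and among the 10148 bright enough to be tested. Each member had 1 set of values on the arrays, repeated over all its probe sets (3 for POLR2A and 5 for POLR2E), so different transcripts of a gene cannot be told apart.

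RNA was measured on expression arrays from A673 and TC32, established human lines of Ewing sarcoma, a bone and soft tissue tumour in which EWSR1 is fused to an ETS gene. Both lines were grown in DMEM with serum and treated for 6 hours with DMSO (the vehicle), 100 nM THZ531 or 500 nM THZ531, a covalent inhibitor of the kinases CDK12 and CDK13, with 2 arrays in each of the 6 groups. ERCC spike-in RNA had been added to the total RNA of all 12 samples. The labels call the arrays of a group biological replicates but do not say whether the cultures were set up separately. The p-values therefore cover only the variation among these arrays, which may be technical, and 2 arrays a group limit the precision.

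RNA polymerase II makes all messenger RNA. RPB1, the product of POLR2A, and RPB2, the product of POLR2B, form the active centre, and RPB1 carries the long repetitive tail that kinases such as CDK7, CDK9, CDK12 and CDK13 phosphorylate as transcription starts and elongates. The small subunits build the assembly platform, the stalk and the jaws around this core, and some of them are also built into RNA polymerases I and III.

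The promoter sequences of the members whose RNA moved furthest in each direction, POLR2A and POLR2D, and of the other large subunit are shown because the comparisons below turn on the separation of these genes. Each line gives the 100 bases before the annotated start in RefSeq on GRCh38.p14, on the gene's own strand, with matches to GGGCGG, the core of the GC box bound by SP1, in capitals on either strand.
POLR2A, chr17:7484266-7484365, plus strand: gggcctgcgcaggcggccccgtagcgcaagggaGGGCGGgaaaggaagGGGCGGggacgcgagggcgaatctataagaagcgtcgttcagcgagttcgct
POLR2B, chr4:56978796-56978895, plus strand: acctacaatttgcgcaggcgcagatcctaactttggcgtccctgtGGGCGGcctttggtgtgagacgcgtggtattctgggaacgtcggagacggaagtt
POLR2D, chr2:127858156-127858255, minus strand: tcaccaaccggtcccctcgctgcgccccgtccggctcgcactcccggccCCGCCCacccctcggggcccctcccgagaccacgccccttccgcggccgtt
The POLR2A window held 2 matches to GGGCGG, and the POLR2B and POLR2D windows held 1 each, which for POLR2D lies on the reverse strand and reads CCGCCC. Of the 35116 RefSeq promoter windows of the same length, 31.3% held at least 1 such match on either strand. None of these 3 windows held TATAAA (4.99% of all windows) or CCAAT (18.1%), each searched on both strands. G and C made up 68.0% of the POLR2A window, 57.0% of the POLR2B window and 79.0% of the POLR2D window. The 3 windows thus share the GC box match and the lack of both other motifs, and a match in letters is not a measured binding site. Promoter windows were taken for 7 of the 10 members.

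Values are log2 units as the authors deposited them, and the brightness of whole arrays differed between groups. The median over the tested genes was 7.98 and 7.43 on the 2 A673 arrays with 500 nM, against 8.87 and 8.78 with DMSO, and 6.87 and 6.88 on the TC32 arrays with 500 nM, against 8.08 and 7.94 with DMSO. The replicates correlated at 0.9906 to 0.9968 over genes, and the pair of A673 arrays with 500 nM stood furthest apart, with a median difference of 0.52 over genes. Each change is therefore given on 2 scales, as deposited and, after the median of its array over all kept genes had been subtracted from each value, relative to the array medians. A change as deposited includes the movement of the whole array, and a relative one says only how a gene moved against the median kept gene. In a bulk sample, fewer cells and less RNA per cell cannot be told apart. Of 10 Ewing sarcoma marker genes, 9 were measured, and their group means lay at or above the brightness limit of 5.94 in all groups except TC32 with 500 nM, where 8 did. Of 11 markers of blood, epithelial, endothelial and stromal cells, 2 to 5 did, and their group means ran from 3.63 to 7.40.

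At 500 nM, 7 of the 10 members were lower and 0 higher in A673 than with DMSO in the values as deposited, where 82.5% of all tested genes were lower and 0.946% higher (limma over all tested genes, Benjamini-Hochberg adjusted p below 0.05; 0 members were higher at an unadjusted p below 0.05 too). In TC32 4 members were lower and 0 higher, against 62.9% and 0.946% of all tested genes, with 0 higher at an unadjusted p below 0.05. The median change of the members was closer to 0 than that of all tested genes, at -0.59 in A673 and -0.25 in TC32, beside -0.73 and -0.64. As deposited, both arrays with 500 nM lay below both DMSO arrays for 82.9% of all tested genes in A673 and 89% in TC32. With 100 nM this held for 87.4% and 44.2%. A member that lies wholly below DMSO as deposited therefore does what most genes do, except in TC32 with 100 nM. Relative to the array medians, 4 members were higher and 1 lower in A673 (29.6% and 27.4% of all tested genes), and 6 were higher and 2 lower in TC32 (41.3% and 30.8%). Their median relative change was 0.24 in A673 and 0.55 in TC32, beside 0.10 and 0.15 over all tested genes. POLR2D was lower in both lines on both scales, and POLR2A, POLR2E, POLR2F and POLR2I were higher in both lines in relative terms. The A673 results rest on arrays that disagree in brightness: without the first 500 nM array all 10 members were lower as deposited. Without the second 500 nM array the POLR2E change as deposited lost its call (-0.23, adjusted p = 0.0637), and without the first DMSO array it did too (-0.44, adjusted p = 0.111), while POLR2K lost its call without the second DMSO array (-0.46, adjusted p = 0.0862).

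**Figure D1:**
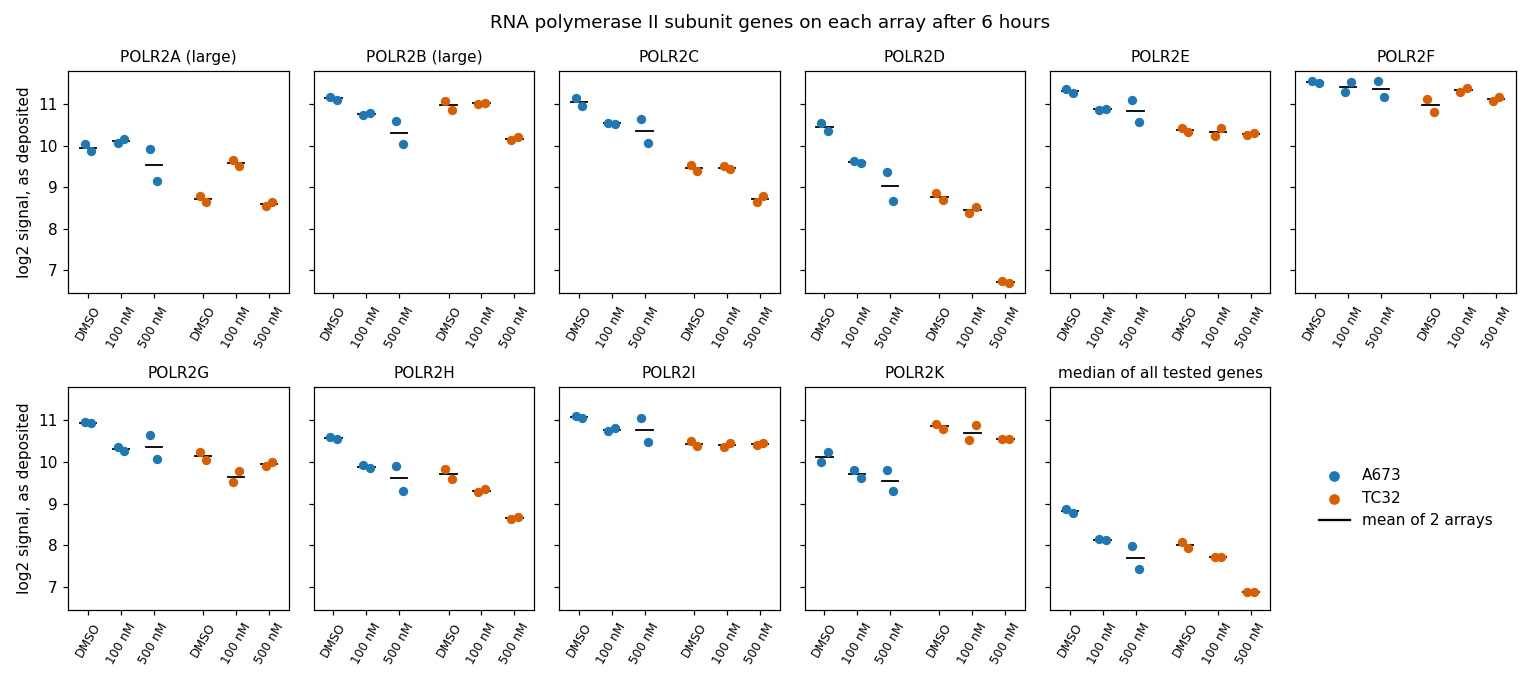
Deposited log2 value of each member (y axis, log2 units) on each of the 12 arrays, one panel per gene, with DMSO, 100 nM and 500 nM THZ531 from left to right within each line. Points are single arrays and horizontal bars are means of 2; POLR2A is brighter with 100 nM than with DMSO on both TC32 arrays, and POLR2D is dimmer with 500 nM than with DMSO on every array of both lines.

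POLR2A, the gene of the catalytic subunit that carries the tail, was at its highest with 100 nM in both lines. In TC32 its values were 8.79 and 8.65 with DMSO, 9.66 and 9.51 with 100 nM, and 8.54 and 8.65 with 500 nM. Both arrays with 100 nM lay above all the other TC32 arrays, and the 500 nM arrays lay below the DMSO arrays, the brighter one only just. In A673 its values were 10.04 and 9.86 with DMSO, 10.07 and 10.17 with 100 nM, and 9.93 and 9.16 with 500 nM. Here both 100 nM arrays were again the brightest, and the 2 arrays with 500 nM stood further apart than the group means did. As deposited, both 100 nM arrays lay above both DMSO arrays for 26.1% of all tested genes in TC32 and 3.44% in A673.

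At 100 nM POLR2A rose 1.82-fold in TC32 (log2 difference 0.86 ± 0.21, SE, adjusted p = 0.000205 by limma), and it was the 1 member that was higher there, where 5.56% of all tested genes were higher and 20.9% lower. That call held with any 1 array left out, with differences from 0.79 to 0.94. In A673 the difference as deposited was 0.17 ± 0.20 (adjusted p = 0.438). Relative to the array medians POLR2A was higher with 100 nM in both lines, by 0.79 in A673 (adjusted p = 2.07e-05 by limma) and by 1.07 in TC32 (adjusted p = 2.29e-07). These relative changes stood at percentile 97.0 of all tested genes in A673 and 98.1 in TC32. At 500 nM the change as deposited did not pass the test in either line (-0.41 in A673, adjusted p = 0.0548, and -0.13 in TC32, adjusted p = 0.584), while the relative change was 0.42 in A673 and 0.67 in TC32, both past it. The A673 values rest on single arrays. As deposited the change was -0.79 without the first 500 nM array, past the test (adjusted p = 4.85e-06), and -0.025 without the second (adjusted p = 0.861), and the relative change was 0.28 without the first (adjusted p = 0.121). Between the doses POLR2A was lower with 500 nM than with 100 nM, by a log2 difference of -0.58 in A673 and -0.99 in TC32 as deposited, and by -0.37 and -0.40 in relative terms, all past the test. The A673 difference as deposited lost its call without the first 100 nM array (-0.63, adjusted p = 0.106), without the second (-0.53, adjusted p = 0.198) and without the second 500 nM array (-0.20, adjusted p = 0.221).

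POLR2B, the gene of the second large subunit, was not higher with 100 nM as deposited, and its relative values were highest with 100 nM without passing the test. In TC32 it measured 11.09 and 10.86 with DMSO, 11.01 and 11.04 with 100 nM, and 10.14 and 10.21 with 500 nM. The 100 nM arrays lay between the DMSO arrays, and both 500 nM arrays lay below all others. In A673 it measured 11.18 and 11.11 with DMSO, 10.75 and 10.80 with 100 nM, and 10.59 and 10.03 with 500 nM, so that the groups did not overlap and each higher dose was dimmer. At 500 nM it fell 1.78-fold in A673 (-0.84 ± 0.19, adjusted p = 2.07e-05 by limma) and 1.75-fold in TC32 (-0.81 ± 0.19, adjusted p = 4.29e-05). In relative terms neither difference passed the test: they were -0.00 in A673 and -0.01 in TC32, with standard errors of 0.11. At 100 nM its change as deposited was -0.37 in A673 (adjusted p = 0.0709) and 0.05 in TC32 (adjusted p = 0.902). Relative to the array medians its values with 100 nM were 4.14 and 4.26 in A673, against 3.86 and 4.04 with DMSO, and 4.65 and 4.80 in TC32, against 4.55 and 4.39 with DMSO. On that scale both 100 nM arrays lay above all other arrays of their line. Of all tested genes, 42.6% in A673 and 49.2% in TC32 had both 100 nM arrays above both DMSO arrays on that scale. The relative differences at 100 nM were 0.25 ± 0.11 in A673 (adjusted p = 0.0721 by limma) and 0.25 ± 0.11 in TC32 (adjusted p = 0.0533). They passed in A673 without the second DMSO array (0.34, adjusted p = 0.0324), and in TC32 without the first 100 nM array (0.33, adjusted p = 0.039) and without either A673 array with DMSO (adjusted p = 0.0365).

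Within each array the distance between the 2 large subunit genes changed with the drug, and whole-array brightness cancels in that distance. POLR2A minus POLR2B, set to 0 for the mean of each line's DMSO arrays, was 0.52 and 0.57 on the A673 arrays with 100 nM and 0.53 and 0.33 with 500 nM. In TC32 it was 0.91 and 0.72 with 100 nM and 0.66 and 0.70 with 500 nM. The DMSO arrays lay between -0.05 and 0.05 in both lines, so all 8 treated arrays stood above all 4 DMSO arrays. The 8 treated arrays share the 4 DMSO arrays as their zero.

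The small subunit genes differed widely among themselves. POLR2D encodes RPB4, which with RPB7 forms the stalk that reaches out of the enzyme next to the exit of the RNA. Its TC32 values were 8.86 and 8.68 with DMSO, 8.38 and 8.52 with 100 nM, and 6.74 and 6.69 with 500 nM. Its A673 values were 10.54 and 10.35 with DMSO, 9.63 and 9.59 with 100 nM, and 9.37 and 8.67 with 500 nM. In both lines the groups did not overlap, and the values were lower at each higher dose. Between 100 nM and 500 nM, 38.9% of all tested genes in A673 and 83.5% in TC32 also lay wholly lower. At 500 nM POLR2D fell 4.17-fold in TC32 (-2.06 ± 0.21, adjusted p = 5.23e-22 by limma) and 2.69-fold in A673 (-1.43 ± 0.21, adjusted p = 3.89e-11), the deepest falls among the 10 members. It remained lower in relative terms, by -1.27 in TC32 (adjusted p = 5.81e-09) and -0.60 in A673 (adjusted p = 0.00026), at percentiles 9.12 and 17.9 of all tested genes. All of these 500 nM calls held with any 1 array left out. At 100 nM it was lower in A673 (-0.84, adjusted p = 0.000248) and did not pass in TC32 (-0.33, adjusted p = 0.28), and the relative changes of -0.22 and -0.12 passed in neither line.

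POLR2G encodes RPB7, the partner of RPB4 in the stalk, and its values did not follow those of POLR2D. On the TC32 arrays it read 10.24 and 10.05 with DMSO, 9.51 and 9.77 with 100 nM, and 9.91 and 10.00 with 500 nM. On the A673 arrays it read 10.97 and 10.93 with DMSO, 10.36 and 10.26 with 100 nM, and 10.64 and 10.06 with 500 nM. In TC32 both 100 nM arrays were the lowest, whereas POLR2D was lowest with 500 nM. POLR2G was the 1 member lower in TC32 with 100 nM (-0.50, adjusted p = 0.041 by limma), but this call ended under 10 of the 12 ways to leave out 1 array, with adjusted p up to 0.434. At 500 nM it was lower in A673 (-0.60, adjusted p = 0.00355), and in TC32 it measured -0.19 (adjusted p = 0.382) as deposited and 0.60 in relative terms (adjusted p = 0.000218). Between the doses in TC32 its relative value was higher with 500 nM than with 100 nM by 0.90 (adjusted p = 2.25e-06), at percentile 98.1 of all tested genes, where POLR2D stood at percentile 8.48 with -1.15.

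POLR2C encodes RPB3, which with RPB11 forms the platform on which the large subunits assemble. In TC32 it measured 9.53 and 9.39 with DMSO, 9.50 and 9.44 with 100 nM, and 8.65 and 8.78 with 500 nM. In A673 it measured 11.15 and 10.95 with DMSO, 10.55 and 10.53 with 100 nM, and 10.65 and 10.07 with 500 nM. Both TC32 arrays with 500 nM lay below the rest, and in A673 all treated arrays lay below both DMSO arrays. It was lower with 500 nM in A673 (-0.69, adjusted p = 0.00102 by limma) and in TC32 (-0.75, adjusted p = 0.000393). As for POLR2B, its relative differences, 0.14 and 0.04, did not pass the test.

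Among the 4 members that encode subunits shared by RNA polymerases I, II and III, POLR2F and POLR2H stood at opposite ends. POLR2F encodes RPB6, which sits at the base of the clamp. Its TC32 values were 11.13 and 10.81 with DMSO, 11.28 and 11.39 with 100 nM, and 11.08 and 11.18 with 500 nM. Its A673 values were 11.56 and 11.52 with DMSO, 11.28 and 11.54 with 100 nM, and 11.55 and 11.16 with 500 nM. In A673 the treated arrays overlapped the DMSO arrays at both doses, and in TC32 those with 500 nM did. Its change as deposited passed the test in no comparison of a dose with DMSO, though in A673 with 500 nM it did without the first 500 nM array (-0.38, adjusted p = 0.00771) and in TC32 with 100 nM without either A673 array with 500 nM (0.37, adjusted p = 0.00555 and 0.00566). In relative terms it was higher with 500 nM by 0.65 in A673 (adjusted p = 0.000106 by limma) and 0.95 in TC32 (adjusted p = 4.85e-07). These were the highest relative changes of the 10 members at that dose, at percentiles 95.3 and 98.3.

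POLR2H encodes RPB8. On the TC32 arrays it read 9.84 and 9.60 with DMSO, 9.27 and 9.35 with 100 nM, and 8.62 and 8.68 with 500 nM. On the A673 arrays it read 10.61 and 10.54 with DMSO, 9.92 and 9.85 with 100 nM, and 9.91 and 9.30 with 500 nM. All treated arrays lay below the DMSO arrays of their line. At 500 nM it fell 1.96-fold in A673 (-0.97 ± 0.20, adjusted p = 4.68e-06 by limma) and 2.10-fold in TC32 (-1.07 ± 0.20, adjusted p = 4.21e-07), second to POLR2D in both lines. In relative terms it was lower in TC32 (-0.28, adjusted p = 0.0394), a call that ended without the first DMSO array (-0.19, adjusted p = 0.277), without the first 500 nM array (-0.21, adjusted p = 0.196) and, with the difference unmoved, without either A673 array with 100 nM (adjusted p = 0.0559 and 0.0558). In A673 the relative change was -0.14 (adjusted p = 0.308).

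POLR2E, the gene of RPB5 in the lower jaw, and POLR2I, the gene of the Pol II subunit RPB9, stood close to their DMSO values in TC32. POLR2E measured 10.44 and 10.34 there with DMSO, 10.23 and 10.42 with 100 nM, and 10.26 and 10.32 with 500 nM. POLR2I measured 10.50 and 10.38 with DMSO, 10.36 and 10.45 with 100 nM, and 10.40 and 10.46 with 500 nM. The treated TC32 arrays overlapped the DMSO arrays, except that POLR2E with 500 nM lay just below them. In A673 POLR2E measured 11.37 and 11.27 with DMSO, 10.86 and 10.89 with 100 nM, and 11.09 and 10.57 with 500 nM. POLR2I measured 11.11 and 11.05 with DMSO, 10.74 and 10.81 with 100 nM, and 11.05 and 10.49 with 500 nM in A673. Their treated A673 arrays lay below the DMSO arrays, the brighter POLR2I array with 500 nM only just. In relative terms both were higher with 500 nM, POLR2E by 0.34 in A673 (adjusted p = 0.0127 by limma) and 0.70 in TC32 (adjusted p = 1.16e-05), and POLR2I by 0.52 (adjusted p = 0.000393) and 0.78 (adjusted p = 1.82e-06). The POLR2E call in A673 ended without the first DMSO array (0.27, adjusted p = 0.0827) and without the first 500 nM array (0.32, adjusted p = 0.0813).

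POLR2K encodes RPB12, a small zinc-binding subunit shared by the nuclear polymerases. In TC32 it measured 10.92 and 10.80 with DMSO, 10.53 and 10.88 with 100 nM, and 10.55 and 10.56 with 500 nM. In A673 it measured 10.01 and 10.24 with DMSO, 9.80 and 9.62 with 100 nM, and 9.81 and 9.29 with 500 nM. The 500 nM arrays lay below the DMSO arrays in both lines. The difference at 500 nM was -0.57 in A673 (adjusted p = 0.00508 by limma) and -0.31 in TC32 (adjusted p = 0.156), and in relative terms it was 0.26 (adjusted p = 0.129) and 0.49 (adjusted p = 0.00503).

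**Figure D2:**
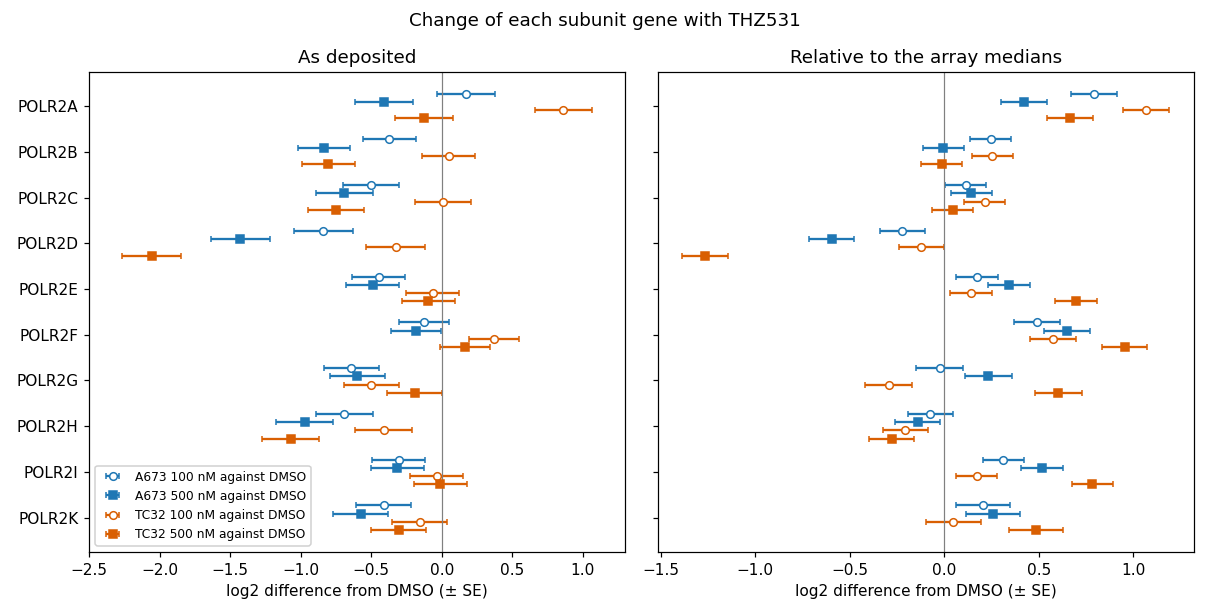
Fitted log2 difference from DMSO for the 10 members at 100 nM and 500 nM in A673 and TC32, in deposited values and with array medians subtracted; points are differences of 2 against 2 arrays and bars are standard errors. POLR2D lies lowest at 500 nM, at -1.43 in A673 and -2.06 in TC32 as deposited, and POLR2A lies highest at 100 nM, at 0.17 and 0.86.

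At 100 nM, 5 members were lower and 0 higher in A673 as deposited (58.7% and 1.31% of all tested genes; 0 members were higher at an unadjusted p below 0.05): POLR2C, POLR2D, POLR2E, POLR2G and POLR2H. Left out singly, the first DMSO array ended the calls of POLR2C, POLR2E and POLR2G (adjusted p = 0.232, 0.209 and 0.0515), the first 100 nM array those of POLR2C and POLR2E (0.106 and 0.151), and the second 100 nM array all but that of POLR2D (0.0503 to 0.133). The POLR2E call also ended without the second DMSO array (0.0743) and without any TC32 array (0.0511 to 0.0523), and without either A673 array with 500 nM 8 members were lower. In TC32 POLR2A was higher and POLR2G lower. In relative terms POLR2A, POLR2F and POLR2I were higher in A673 and 0 were lower (24.4% and 17.1% of all tested genes; 0 lower at an unadjusted p below 0.05). POLR2A and POLR2F were higher in TC32 and 0 were lower there (30.6% and 21.2%; 1 lower at an unadjusted p below 0.05). POLR2F was higher by 0.49 in A673 (adjusted p = 0.00249 by limma) and 0.57 in TC32 (adjusted p = 0.000484), and POLR2I by 0.31 in A673 (adjusted p = 0.0254). Without the second 100 nM array the A673 value of POLR2F was 0.33 (adjusted p = 0.0983) and that of POLR2I 0.25 (adjusted p = 0.215), and without the first DMSO array POLR2I was at 0.22 (adjusted p = 0.186). The comparisons of 100 nM and of 500 nM with DMSO share their DMSO arrays.

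Between the doses, 5 members were lower with 500 nM than with 100 nM in TC32 as deposited and 0 higher (55.5% and 1.09% of all tested genes; 0 higher at an unadjusted p below 0.05). These were POLR2A, POLR2B, POLR2C, POLR2D and POLR2H, with differences from -1.73 for POLR2D to -0.66 for POLR2H. In A673 POLR2A, POLR2B and POLR2D were lower and 0 higher (26.7% and 0.897%; 0 higher at an unadjusted p below 0.05). All 3 of these calls ended when the second 500 nM array was left out, with POLR2A at -0.20 (adjusted p = 0.221 by limma), POLR2B at -0.18 (adjusted p = 0.193) and POLR2D at -0.24 (adjusted p = 0.158), and also when either 100 nM array was. The POLR2B call ended too without any array of TC32 or of A673 with DMSO (adjusted p = 0.0757 to 0.0854), and without the first 500 nM array 8 members were lower. In relative terms POLR2E, POLR2F, POLR2G, POLR2I and POLR2K were higher and POLR2A, POLR2B and POLR2D lower with 500 nM in TC32 (29.1% and 29.8% of all tested genes). In A673 POLR2A and POLR2D were lower and 0 higher on that scale (25.1% and 10.4%; 0 higher at an unadjusted p below 0.05).

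The large subunits were set against the small ones within each array, by the mean of POLR2A and POLR2B minus the mean of the 8 small subunit genes, again from the mean of the line's DMSO arrays. The difference was 0.36 and 0.44 on the A673 arrays with 100 nM and 0.09 and -0.02 with 500 nM. In TC32 it was 0.70 and 0.49 with 100 nM and 0.06 and 0.09 with 500 nM. The DMSO arrays lay between -0.03 and 0.03, so the large subunits stood above the small ones with 100 nM on all 4 arrays. With 500 nM the group means of 0.03 in A673 and 0.07 in TC32 were no larger than the pooled replicate SD of 0.07, but they depended on how the small subunits were summarised. Against the small subunits of RNA polymerase II alone they were 0.14 in A673 and 0.29 in TC32, and against the median of the 8 small subunits 0.01 and -0.32, so that the TC32 value has no settled direction. The mean hides opposite positions of its parts. With 500 nM POLR2A lay above the mean of the small subunits, by 0.25 in A673 and 0.41 in TC32. POLR2B lay below that mean, by -0.18 and -0.27. The mean takes in POLR2D, the member that fell furthest. In relative terms POLR2F and POLR2I rose more than POLR2A with 500 nM in both lines, and POLR2E did in TC32. With 100 nM POLR2A lay 0.67 above the mean of the small subunits in A673 and 1.00 in TC32, and POLR2B 0.12 and 0.19. These differences are a description of the arrays and carry no test.

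**Figure D3:**
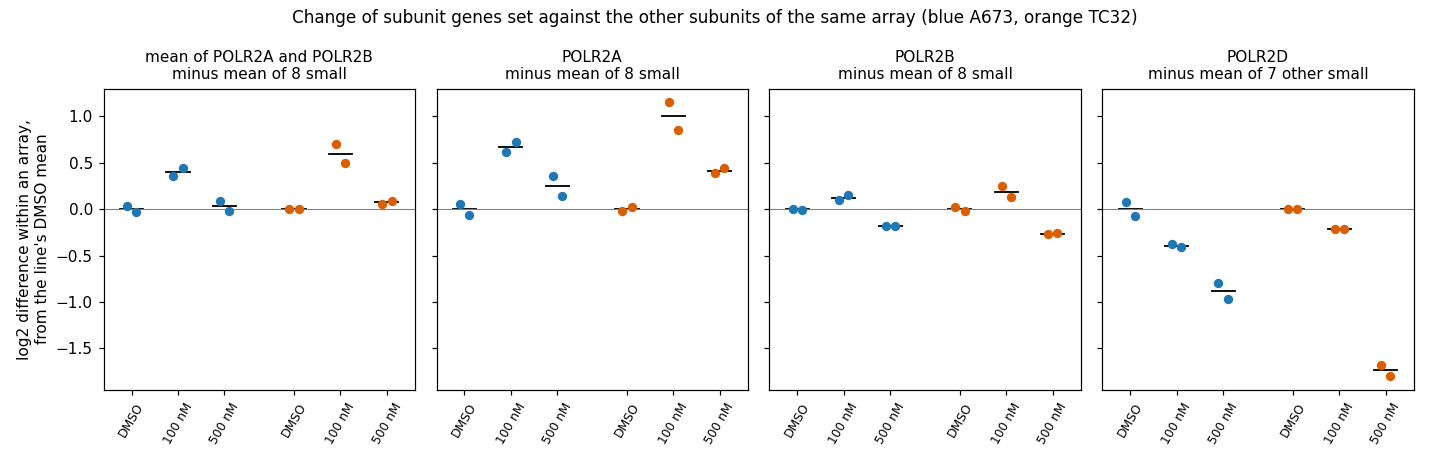
Distance of the large from the small subunit genes on each array (y axis, log2 units, from the mean of the line's DMSO arrays), by line and dose, for the mean of both large subunits, for POLR2A and for POLR2B. The last panel shows POLR2D against the mean of the other small subunit genes. For the mean of both large subunits the distance is above 0 on all 4 arrays with 100 nM, at 0.36 to 0.70, and between -0.02 and 0.09 on those with 500 nM.

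Within the small subunits POLR2D alone set much of the spread. Against the mean of the 7 other small subunit genes it lay at -0.39 in A673 and -0.21 in TC32 with 100 nM, and at -0.88 and -1.74 with 500 nM. The 4 shared subunit genes among the members (POLR2E, POLR2F, POLR2H and POLR2K) minus the 4 of RNA polymerase II alone (POLR2C, POLR2D, POLR2G and POLR2I) came to 0.15 in A673 and 0.15 in TC32 with 100 nM, and to 0.20 and 0.42 with 500 nM. POLR2D is in the second of these sets. With 500 nM the relative changes of the shared genes ran from -0.14 to 0.65 in A673 and from -0.28 to 0.95 in TC32. Those of POLR2C, POLR2G and POLR2I lay within these ranges, and that of POLR2D lay below them. The difference between the sets with 500 nM thus rests largely on POLR2D.

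The 2 lines were set against each other in 2 ways. In the effect of 500 nM, 0 members differed between TC32 and A673 as deposited (1.28% of all tested genes lower and 0.552% higher; limma, with 1 member lower and 0 higher at an unadjusted p below 0.05). In relative terms POLR2D fell further in TC32, by -0.67 ± 0.17 (adjusted p = 0.0134), the 1 member to differ, where 6.75% of all tested genes were lower and 3.04% higher. In the effect of 100 nM, 0 members differed as deposited (0.0887% lower and 2.22% higher of all tested genes; 2 members higher at an unadjusted p below 0.05, by limma) and 0 in relative terms (1.76% lower and 0.857% higher; 0 at an unadjusted p below 0.05). The POLR2A response to 100 nM, 0.69 ± 0.29 larger in TC32 as deposited, had an adjusted p of 0.137. As deposited the median of this effect between lines was 0.41 over all tested genes and 0.40 over the members. In relative terms the POLR2A difference was 0.28 and did not pass the test. The effects of 100 nM compare no array with 500 nM. Leaving out such an array moved only the spread that all groups share and not the differences at 100 nM. A count of 0 for that effect is therefore no sign that the lines responded alike. These counts of 0 as deposited turned when either A673 array with 500 nM was left out, which leaves 1 array in that group. As deposited such calls include the movement of whole arrays.

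With DMSO, 8 members were higher in A673 than in TC32 and 1 was lower as deposited (77.4% and 5.13% of all tested genes). POLR2D had values 1.68 ± 0.21 higher in A673 (3.19-fold, adjusted p = 1.17e-14 by limma), POLR2C 1.59 ± 0.20 (3.00-fold, adjusted p = 2.2e-14) and POLR2A 1.23 ± 0.20 (2.34-fold, adjusted p = 9.57e-09). For these 3 genes both A673 arrays lay above both TC32 arrays by over 1 log2 unit. Both A673 arrays also lay above both TC32 arrays for 85.8% of all tested genes, and the median difference over all tested genes was 0.81. POLR2B, with 0.17 (adjusted p = 0.392), was the member that did not pass. In relative terms POLR2A, POLR2C and POLR2D remained higher in A673, by 0.54, 0.89 and 0.98, and 2 members were lower (33.9% and 21.4% of all tested genes). POLR2K was lower in A673 on both scales, by -0.74 ± 0.20 as deposited (adjusted p = 0.000273) and by -1.43 ± 0.14 in relative terms (adjusted p = 2.05e-08), at percentile 3.39 of all tested genes. Relative to the medians POLR2B was also lower in A673, by -0.52 (adjusted p = 0.00029), against its positive difference as deposited. The higher call of POLR2F as deposited (0.57, adjusted p = 0.0019) ended without the second TC32 DMSO array (0.41, adjusted p = 0.103).

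The genes whose values ran most like those of a member were found over the 12 arrays after subtraction of the array medians, as a description over points that share 2 lines and 3 doses. For POLR2A these were GALNT11, UGGT2, DDX54, CCNT2 and KLHL7, with Pearson correlations of 0.9865, 0.9852, 0.978, 0.9694 and 0.9691. CCNT2 encodes a cyclin partner of CDK9. For POLR2B they were HMGN4, HECA, PDP1, EXT1 and RAB18, from 0.9893 down to 0.9774. For POLR2D they were TXNL4B, CDC23 and RASA3, at 0.9948, 0.9919 and 0.9918, and for POLR2C they were MYG1, WWTR1 and POU4F1, at 0.9953, 0.9947 and 0.9942. POLR2F ran most like RPL34, KHDRBS1 and NDUFB2 (0.9865, 0.9778 and 0.974), and POLR2E most like AKR7A2, ACAT1 and RPL35A (0.9786, 0.9754 and 0.9752). POLR2G ran most like ITPA, ELAVL1 and HADH, POLR2H most like RPL23AP82, APTX and TRAPPC3, POLR2I most like NUDT1, SRM and EMC10, and POLR2K most like EML3, QDPR and UBA6, with correlations from 0.9506 to 0.9937. RPL34 and RPL35A encode ribosomal proteins. All these correlations run over both lines and take in the difference between them. The relative values of POLR2C ran from 3.83 to 4.05 on the A673 arrays and from 2.91 to 3.20 on the TC32 arrays. Those of POLR2K ran from 2.69 to 3.21 in A673 and from 4.17 to 4.88 in TC32. A shared response to the drug was not tested. Among the members themselves POLR2F and POLR2I ran together (r = 0.909), POLR2D and POLR2H did (0.871), and the 2 large subunit genes had an r of -0.058. That last value runs over both lines, and with DMSO POLR2A was higher and POLR2B lower in A673 than in TC32 in relative terms. Within each line both large subunit genes had their highest relative mean with 100 nM.

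Beyond the 10 members, 3 further genes of RNA polymerase II subunits were tested. POLR2L, the gene of the shared subunit RPB10, was lower with 500 nM in A673 as deposited (-0.42, adjusted p = 0.0147 by limma) and measured -0.09 in TC32, and in relative terms it was higher in both lines, by 0.41 and 0.70. POLR2J, the gene of RPB11, measured -0.59 in A673 (adjusted p = 0.00663) and -0.17 in TC32, with relative differences of 0.24 (adjusted p = 0.174) and 0.63 (adjusted p = 0.000968). POLR2J3 measured -0.45 and -0.07 as deposited and 0.39 and 0.73 in relative terms. POLR2J and POLR2J3 have near-identical copies whose RNA the probes may share, so their values are uncertain. At 500 nM the relative changes of all 3 genes passed the test in TC32, and those of POLR2L and POLR2J3 did in A673.

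The subunits of RNA polymerases I and III that are not shared had lower medians than the members. At 500 nM, 15 of 16 were lower in A673 and 15 of 16 in TC32 as deposited, with medians of -1.29 and -1.57, where 82.5% and 62.9% of all tested genes were lower. In relative terms 9 were lower and 1 higher in A673 (27.4% and 29.6% of all tested genes), and 13 were lower and 1 higher in TC32 (30.8% and 41.3%). POLR1B, which encodes the second largest subunit of polymerase I, was at -1.59 in A673 and -1.93 in TC32 in relative terms, and POLR3F, a polymerase III subunit gene, at -1.44 and -1.56. At the other end POLR1F was at 0.60 and 0.59, and POLR3GL at -0.05 and 0.16, of which the POLR1F values passed the test and the POLR3GL values did not.

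**Figure D4:**
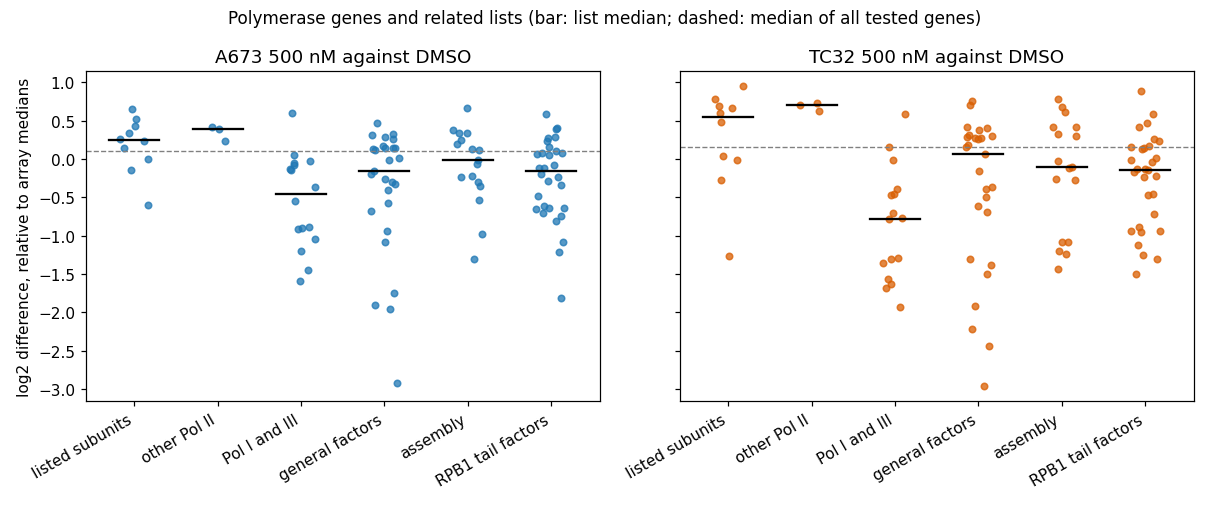
Relative log2 difference between 500 nM and DMSO (y axis) for each tested gene of the 10 members and of the related lists, in A673 and TC32; points are genes and bars are list medians. The medians are 0.24 and 0.55 for the members and -0.46 and -0.78 for the subunits of polymerases I and III.

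The general transcription factor genes, whose products place polymerase II at promoters, covered a wide range. Of 27 tested, 26 were lower in A673 and 22 in TC32 with 500 nM as deposited (82.5% and 62.9% of all tested genes). In relative terms 10 were lower and 4 higher in A673 (27.4% and 29.6% of all tested genes), and 12 lower and 9 higher in TC32 (30.8% and 41.3%). GTF2E1, which encodes the large subunit of TFIIE, had relative differences of -2.92 in A673 and -2.96 in TC32, and TAF5, a gene of TFIID, -1.96 and -2.44. TCEA1, the gene of the elongation factor TFIIS, was at 0.31 and 0.71, and TAF10, another gene of TFIID, at 0.47 and 0.76. All of these values passed the test.

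Of 17 tested genes of factors that assemble or import the polymerase, 16 were lower in A673 and 12 in TC32 with 500 nM as deposited (82.5% and 62.9% of all tested genes). In relative terms 5 were lower and 4 higher in A673 (27.4% and 29.6% of all tested genes), and 7 lower and 7 higher in TC32 (30.8% and 41.3%), shares near those of all genes. RPAP2, the gene of a phosphatase that acts on the tail and travels with the polymerase into the nucleus, was at -1.30 in A673 and -1.20 in TC32 in relative terms, and TTI1, a gene of the chaperone complex with TELO2, at -0.98 and -1.24. HSP90AB1, a chaperone gene, was at 0.66 and 0.61, and UXT, a gene of the prefoldin-like complex, at 0.34 and 0.79. All of these passed the test. RPAP2 was also lower with 100 nM, by -1.60 in A673 and -1.37 in TC32 in relative terms.

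Of 30 tested genes whose products modify the RPB1 tail or act in the turnover of RPB1, 29 were lower in A673 and 26 in TC32 with 500 nM as deposited (82.5% and 62.9% of all tested genes). In relative terms 13 were lower and 5 higher in A673 (27.4% and 29.6% of all tested genes), and 11 lower and 5 higher in TC32 (30.8% and 41.3%). CDK13, one of the targets of THZ531, had relative differences of -1.82 and -1.26, and CDK7, the tail kinase of TFIIH, of -1.08 and -1.50. CDK12 was at -0.65 and -0.45, and CCNK, the gene of the cyclin of CDK12 and CDK13, at -0.08 (adjusted p = 0.535 by limma) and -0.13 (adjusted p = 0.279). ELOB and ELOC, which encode the elongins B and C, were at 0.58 and 0.41 in A673 and at 0.89 and 0.59 in TC32. With 100 nM in TC32, where POLR2A was higher, 17 of these 30 genes were higher in relative terms and 9 lower (30.6% and 21.2% of all tested genes), CDK12 among the higher at 0.54 (adjusted p = 0.000921) and CDK13 at -0.08 (adjusted p = 0.698). In A673 with 100 nM, 10 were higher and 8 lower (24.4% and 17.1% of all tested genes).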

How the data were processed

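Gene expression was measured on 12 arrays, 2 in each of 6 groups. The deposited values are log2 expression, 1 per probe set and array; the submitters' processing notes name MAS5, GRCh37 and hg19, and further normalization, such as a rescaling to the ERCC spike-ins, is not given in the sources used here. In all, the deposited table holds 49395 probe sets, of which 44994 were annotated to 1 gene, 1832 to several and 2569 to none. Genes were kept where a single-gene probe set carried values with 3 decimals (17029 genes); 116 whose values were shared with another gene were left out, which left 16913, and for 10 kept genes with several value sets the brightest was used. The 10148 genes at or above the 40th percentile of the mean over all arrays (5.94) were tested. Of the subunit genes that are not among the 10 members, POLR2M was under that limit, and POLR2J2 had only probe sets that name several genes.

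With limma 3.58.1 in R 4.3.3, a mean for each of the 6 groups was fitted to the 12 arrays (lmFit, eBayes with a mean-variance trend), with Benjamini-Hochberg adjustment over all tested genes and a threshold of 0.05. The same was done after the median over kept genes had been subtracted from each array. As deposited, the spread of single genes was so uniform that limma's prior degrees of freedom were infinite, against 15.77 after subtraction. The adjusted p-values as deposited may therefore be smaller than 2 arrays a group warrant. They can also be too large, since the spread shared by all groups takes in the brightness gap of the A673 arrays with 500 nM. Without either of these arrays some differences at 100 nM kept their size and had a smaller adjusted p. The median residual SD was 0.19 as deposited and 0.12 after subtraction, with 6 residual degrees of freedom. The fit was tested on simulated data with independent noise at the spread found after subtraction and no offsets of whole arrays. That test does not cover the p-values as deposited. Deviations of same-numbered arrays from their group means correlated at -0.156 to 0.238. With 2 arrays a group these values cannot settle whether the replicate numbers pair the samples. The main fit did not pair them. The members and gene lists were chosen with earlier results of these data known. All members were named. From each related list the genes with the lowest and the highest relative change at 500 nM, averaged over both lines, were named, with CDK12, CDK13 and CCNK. Alternatives were quantile normalization, other filters, no trend, a replicate block, only the arrays compared, and each array left out. The label of dose reads 100 nM for DMSO samples too, and is taken there as not applying. Promoter sequences came from RefSeq (GRCh38.p14).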

Additional observations from a re-analysis of the deposited data

Results flagged for a closer look

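POLR2D fell further in TC32 than in A673 with 500 nM relative to the array medians, by a tested difference between the lines of -0.67 ± 0.17 (limma, adjusted p = 0.0134). Both 500 nM arrays of each line lay below its DMSO arrays on that scale. The same held for 33.6% of all tested genes in A673 and 37.1% in TC32. The difference was -0.56 without the first A673 array with 500 nM (adjusted p = 0.0869) and -0.61 without the first TC32 array with DMSO (adjusted p = 0.0854), and as deposited it was -0.63 (adjusted p = 0.432). The lines also differed in POLR2D with DMSO, where it was 3.19-fold higher in A673, and the part of that in the result was not tested.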

How the results depend on the processing

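Directions and calls depended most on whether array medians were subtracted. After subtraction, changes that passed the test on at least 1 of the scales turned positive with 500 nM in A673 for POLR2A (0.42), POLR2C (0.14), POLR2E (0.34), POLR2F (0.65), POLR2G (0.23), POLR2I (0.52) and POLR2K (0.26), and in TC32 for POLR2A (0.67), POLR2C (0.044), POLR2E (0.70), POLR2G (0.60), POLR2I (0.78) and POLR2K (0.49); with 100 nM in A673 for POLR2C (0.11), POLR2E (0.17), POLR2F (0.49) and POLR2I (0.31); and between the doses in TC32 for POLR2E (0.56), POLR2F (0.38) and POLR2K (0.44). With DMSO, A673 against TC32, POLR2B (-0.52), POLR2F (-0.12) and POLR2I (-0.047) turned negative. The replicate block with subtraction gave the same turns for the doses. Under quantile normalization the turned values were 0.55, 0.023, 0.14, 0.36, 0.14, 0.34 and 0.35 in A673 at 500 nM for the same 7 genes, 0.80, 0.057, 0.38, 0.36 and 0.46 in TC32 for POLR2A, POLR2C, POLR2E, POLR2G and POLR2I, 0.21 for POLR2E and 0.26 for POLR2I between the doses in A673, 0.42 for POLR2E and 0.063 for POLR2H between the doses in TC32, and -0.60, -0.14 and -0.12 with DMSO for POLR2B, POLR2F and POLR2I. The turns come from the scale itself, by construction.

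Counts of members (lower, higher) moved as follows. With subtraction they became 1 and 4 (A673, 500 nM), 2 and 6 (TC32, 500 nM; 1 and 6 with the block), 0 and 3 (A673, 100 nM), 0 and 2 (TC32, 100 nM), 3 and 5 (TC32, 500 against 100 nM), 1 lower for the 500 nM effect between lines, and 2 and 3 with DMSO. With quantile normalization they became 2 and 5 (A673, 500 nM), 5 higher (TC32, 500 nM), 3 and 1 (A673, 100 nM), 2 and 2 (TC32, 100 nM), 1 and 3 (A673, between doses), 3 and 3 (TC32, between doses), 1 and 1 for the 500 nM effect between lines, and 3 and 4 with DMSO. With only the arrays compared they became 4 lower (A673, 500 nM), 2 lower (A673, 100 nM), 3 and 2 (TC32, 100 nM), 0 lower (A673, between doses), 1 higher (TC32, between doses) and 6 higher (100 nM effect between lines). With no filter or no trend, 0 were lower in TC32 with 100 nM. A filter at the 60th percentile and the mean over probe sets moved nothing. The replicate block alone changed 1 call, POLR2K in A673 with 100 nM (adjusted p = 0.0497).

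With each array left out in turn, the members lower numbered 6 to 10 (A673, 500 nM), 4 to 5 (TC32, 500 nM), 1 to 8 (A673, 100 nM), 0 to 3 (TC32, 100 nM), 0 to 8 (A673, between doses), 5 to 5 (TC32, between doses), 0 to 1 (500 nM effect between lines), 0 to 0 (100 nM effect) and 1 to 1 (DMSO), and those higher 0 to 0, 0 to 0, 0 to 0, 1 to 2, 0 to 2, 0 to 1, 0 to 6, 0 to 6 and 7 to 8. In relative terms the lower ranged over 1 to 1, 1 to 2, 0 to 0 and 0 to 1 for the first 4 of these and 0 to 1 and 0 to 0 for the effects between lines, and the higher over 2 to 6, 6 to 6, 1 to 5, 2 to 4, 0 to 0 and 0 to 0; this was added after the data had been seen. POLR2I between the doses in A673 ranged over -0.29 to 0.27, turning to 0.27 without the second 500 nM array. Large against small subunits ranged over 0.36 to 0.44 (A673) and 0.49 to 0.70 (TC32) with 100 nM, and -0.02 to 0.09 and 0.06 to 0.09 with 500 nM. With the small subunits of polymerase II alone it was 0.47 (A673, 100 nM), 0.14 (A673, 500 nM) and 0.29 (TC32, 500 nM), and with their median 0.74 (TC32, 100 nM) and -0.32 (TC32, 500 nM); the cause was not tested. Having 2 arrays a group limits all of these. The share of all tested genes called was not counted in the fits with an array left out.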
